A study of Mus musculus with 4 samples.

Results

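*Defb19*, *Defb36*, *Defb25*, *Cst8*, *Cst9*, *Cst12* and *Cst3* are 7 beta-defensin and cystatin genes, taken by symbol from the 31053 genes of the count tables because some of them are known as Sertoli cell genes. Their levels were followed by single-cell RNA sequencing in the part of the mouse testis that holds the rete testis (RT) and the adjoining tubules, in C57BL/6 pups at postnatal day 14. There were 2 control and 2 *Sox17*-cKO libraries, and each library was made from the pooled cells of 3 pups, so that p-values between genotypes measure the spread between pools. The *Sox17*-cKO pups carried SF1Cre, in which Cre is driven by *Nr5a1* (SF1) sequences that are active in somatic cells of the gonad, together with 2 floxed *Sox17* alleles. The labels give SF1Cre as the genotype of the controls, whereas the study's methods describe floxed littermates as controls, so that what the controls share with the mutants is not settled here.

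Sertoli cells line the seminiferous tubules and nurse the germ cells. At the end of each tubule, a plug of modified Sertoli cells forms the Sertoli valve (SV), which opens into the RT, an epithelial network that collects sperm and fluid. Beta-defensins are small, secreted, cationic peptides with antimicrobial activity, and many of them are produced in the male tract. Many cystatins bind and block papain-like cysteine proteases, the cathepsins, or legumain. *Cst3* encodes cystatin C, a secreted inhibitor made by most tissues. *Cst9* encodes testatin, and *Cst8* (CRES) and *Cst12* belong to the reproductive branch of the family. Whether the products of *Cst8*, *Cst9* and *Cst12* block these proteases was not examined here.

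Each library held 9388 to 13364 barcodes, for 5000 cells aimed at, and 89969877 to 107203219 UMIs, the unique tags that count RNA molecules. The 22567 barcodes with 1000 to 4500 detected genes were clustered without the 7 genes, their families or the cathepsins. Classes are called by their marker genes: 5069 tubule Sertoli-like, 278 SV Sertoli-like, 228 RT-like, 6969 germ-like, 7143 interstitial-like, 253 Leydig-like, 242 macrophage-like and 72 endothelial-like cells. The targeted gene *Sox17* stood at 356 and 312 CPM in the RT-like cells of the controls and at 45.5 and 34.6 CPM in those of the *Sox17*-cKO libraries. The 10 Sertoli markers together reached 8120 to 9671 CPM in tubule Sertoli-like, 6474 to 7884 CPM in SV Sertoli-like and 1692 to 2228 CPM in RT-like cells, where *Amh* was at 0. The replicate number coincided with the Cell Ranger version (6.0.2 for replicate 1, 6.1.2 for replicate 2). Pairs of libraries shared 20 to 43 barcodes, and no barcode was in all 4. A level is given in CPM, which are the UMIs of a gene scaled to the total UMIs of a class in a library. Because the chemistry reads 3' ends, CPM counts molecules whatever the length of the transcript, and it does not separate fewer molecules of a gene per cell from more molecules of other genes.

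All 7 genes lie on chromosome 2 (GRCm38) and are annotated as protein-coding. The cystatins are in a block of 9 protein-coding genes that spans 125.3 kb, chr2:148750358-148875692, with *Cst12* (chr2:148789361-148793546, + strand), *Cst8* (chr2:148798785-148805595, + strand), *Cst9* (chr2:148835147-148838738, + strand) and *Cst3* (chr2:148871722-148875692, - strand). The defensins are 3.58 Mb away, in a block of 12 protein-coding genes that spans 164.0 kb, chr2:152459055-152623053, with *Defb19* (chr2:152576086-152580312, - strand), *Defb36* (chr2:152604327-152612729, + strand) and *Defb25* (chr2:152622356-152623053, - strand). *Defb36* overlaps a processed pseudogene, *Gm14163*, on the same strand, which the count tables do not list. Every overlap of the other 6 genes was looked for and none was found.

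The sequences just upstream of 4 of the genes are shown, those of 3 genes that were highest in Sertoli-like cells and that of a neighbour that was highest elsewhere. Each is the 250 bases before the RefSeq start on the + strand (GRCm38.p6), 5′ to 3′. *Cst12* (chr2:148789115-148789364), *Cst9* (chr2:148834897-148835146) and *Defb36* (chr2:152604077-152604326) are the former, and *Cst8* (chr2:148798589-148798838) was highest in Leydig-like cells. Capitals mark matches, on either strand, to short sequences that known testis factors recognise. The SOX factors are represented by ACAAAG and by the variant ACAATG. The GATA factors are represented by AGATAA and by the variant TGATAA. The androgen receptor is represented by AGAACA, and NR5A1 by CAAGGTCA.
Cst12: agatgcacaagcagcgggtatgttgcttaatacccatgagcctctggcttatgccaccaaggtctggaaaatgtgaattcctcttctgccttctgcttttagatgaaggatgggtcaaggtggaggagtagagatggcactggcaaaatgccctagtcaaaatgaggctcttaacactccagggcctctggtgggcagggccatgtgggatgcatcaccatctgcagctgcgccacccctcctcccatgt
Cst9: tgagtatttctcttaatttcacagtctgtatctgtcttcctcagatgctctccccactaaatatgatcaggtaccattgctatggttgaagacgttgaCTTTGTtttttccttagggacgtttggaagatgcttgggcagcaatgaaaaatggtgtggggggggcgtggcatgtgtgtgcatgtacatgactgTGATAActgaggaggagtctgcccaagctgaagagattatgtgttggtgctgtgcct
Defb36: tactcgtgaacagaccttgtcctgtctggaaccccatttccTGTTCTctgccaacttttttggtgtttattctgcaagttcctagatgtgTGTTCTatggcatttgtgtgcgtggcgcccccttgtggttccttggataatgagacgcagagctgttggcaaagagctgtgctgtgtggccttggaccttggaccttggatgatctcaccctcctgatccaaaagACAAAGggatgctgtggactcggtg
Cst8: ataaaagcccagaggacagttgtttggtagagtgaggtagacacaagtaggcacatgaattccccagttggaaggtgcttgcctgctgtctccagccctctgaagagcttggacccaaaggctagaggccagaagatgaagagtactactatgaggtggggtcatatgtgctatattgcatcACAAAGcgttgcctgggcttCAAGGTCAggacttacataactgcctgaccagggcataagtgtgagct

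The *Cst8* window held CAAGGTCA, 48 bases before the start, and ACAAAG, 68 bases before it. Among all 32817 RefSeq promoter windows of this length, 1.335% held CAAGGTCA and 16.467% held ACAAAG. *Cst9* held TGATAA (7.95% of windows) and ACAAAG, *Defb36* held ACAAAG and 2 matches to AGAACA (16.08% of windows), and the *Cst12* window held no match to these letters. The window of *Cst3*, not printed, had a GC content of 59.6% and 8 CpG against medians of 52.4% and 6 over all windows, whereas that of *Cst8* had 1 CpG. The GATA sequence AGATAA and the SOX variant ACAATG, in 9.992% and 10.696% of all windows, were found in none of the 5 windows. The RefSeq starts of *Cst8*, *Cst12* and *Cst3* lie inside the annotated genes given above. RefSeq windows were matched by symbol for 5 of the 7 genes, not for *Defb19* and *Defb25*, and no match overlapped another. A match is a description of the letters and not evidence of binding.

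In tubule Sertoli-like cells 3 of the genes ranked among the most abundant RNAs. By mean level *Defb19* was 13th, *Cst9* 16th and *Cst12* 17th of all genes, *Defb36* was 131st and *Cst3* 214th. The 7 genes together took 1.27% to 1.60% of the UMIs of this class, against 0.680% to 0.995% in SV Sertoli-like and 0.0826% to 0.152% in RT-like cells. *Cst8* (13.2 CPM) ranked 7335th, and *Defb25* had a single UMI in 31097962 UMIs of the class. The name Sertoli gene therefore described *Defb19*, *Defb36*, *Cst9* and *Cst12* in these libraries, while *Cst8*, *Cst3* and *Defb25* were highest in other classes (levels by class and library are plotted).

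**Figure D1:**
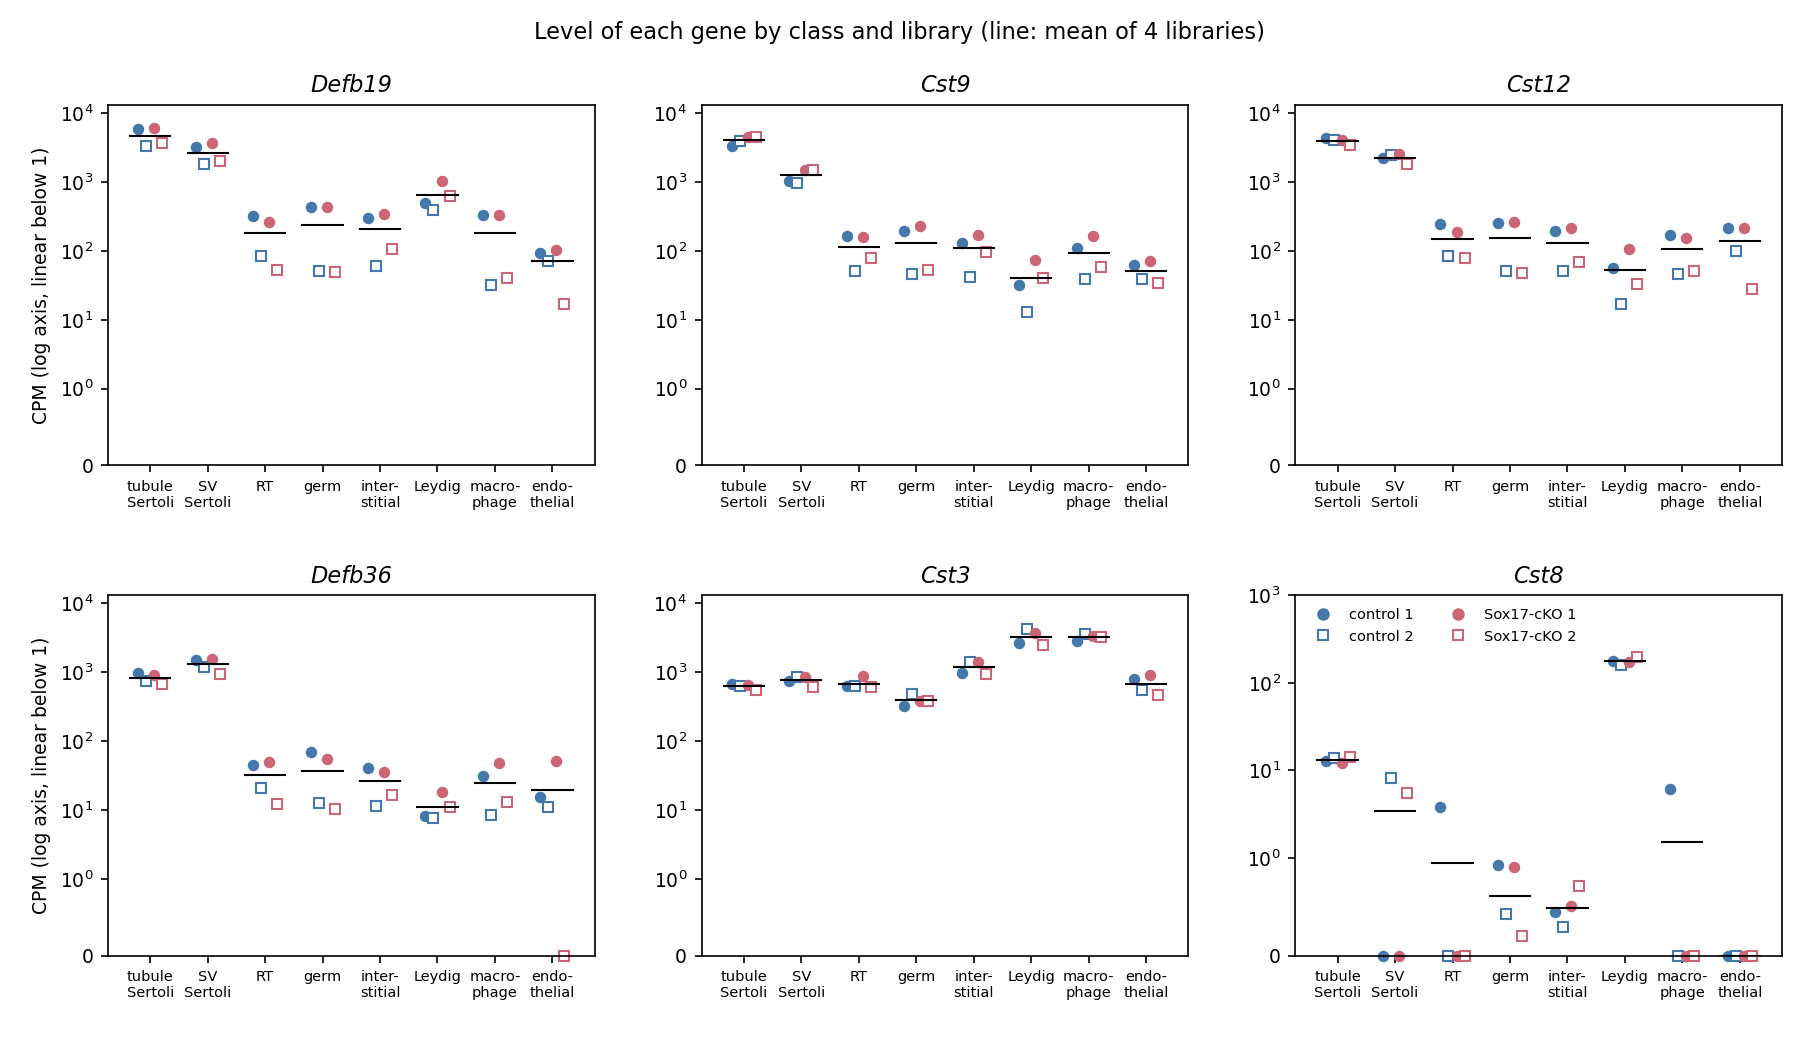
Level in CPM (log axis, linear below 1) of 6 genes in 8 classes, with 1 point per library and a line at the mean of 4 libraries. *Defb19*, *Cst9*, *Cst12* and *Defb36* stood highest in the 2 Sertoli-like classes, *Cst3* in Leydig-like and macrophage-like cells, and *Cst8* at 158 to 199 CPM in Leydig-like cells.

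*Defb19* was counted at 5789.6 and 3346 CPM in the tubule Sertoli-like cells of control 1 and 2 and at 5952 and 3641 CPM in those of *Sox17*-cKO 1 and 2. The libraries with the replicate number 1 were the higher ones in both genotypes. *Cst9* showed 3352 and 3886 CPM in the controls and 4444 and 4417 CPM in the *Sox17*-cKO libraries. *Cst12* showed 4262, 4095, 4068 and 3419.5 CPM in the same order. Both cystatins thus varied less between libraries than *Defb19* did, with an SD of 517 CPM on a mean of 4025 CPM for *Cst9* and of 371 CPM on 3961 CPM for *Cst12*, against 1379.5 CPM on 4682 CPM for *Defb19* (n = 4). *Defb36* ranged from 659 to 951 CPM and *Cst3* from 542 to 659 CPM. *Cst8* lay between 12.1 and 14.3 CPM in each library, from 77 to 136 UMIs.

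Almost every tubule Sertoli-like cell contained RNA of the 3 abundant genes. With each cell thinned to 2000 UMIs, which leaves out 487 shallower cells of this class, *Defb19* was counted in 99.1% to 100%, *Cst9* in 99.1% to 100% and *Cst12* in 99.3% to 99.7% of the cells of a library. *Defb36* was counted in 67.5% to 79.1% of them, and in 89.3% to 94.0% without thinning. In germ-like cells, in which these genes are not known to be made, the thinned share was 7.67% to 49.2% for *Defb19* and 1.91% to 12.6% for *Defb36*, at a median depth of 7337 to 8983 UMIs against 3642 to 6074 UMIs in tubule Sertoli-like cells.

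In the cystatin block the Sertoli-high *Cst12* and *Cst9* had *Cst8* and *Cst13* between them, and *Cst13* had 12 UMIs over all barcodes. *8030411F24Rik*, the neighbour of *Cst12*, reached 294 CPM in tubule Sertoli-like cells and *Cst11* 14.3 CPM. In the defensin block *Defb45*, which lies between *Defb19* and *Defb36*, reached 84.9 CPM. Symbol patterns for beta-defensins, cystatins and stefins took 58 rows, of which 44 had a UMI and 17 had 100 or more over every barcode. These rows include *Cstad* (238 UMIs), which is not a cystatin, and leave out *Cstl1* (0 UMIs).

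**Figure D2:**
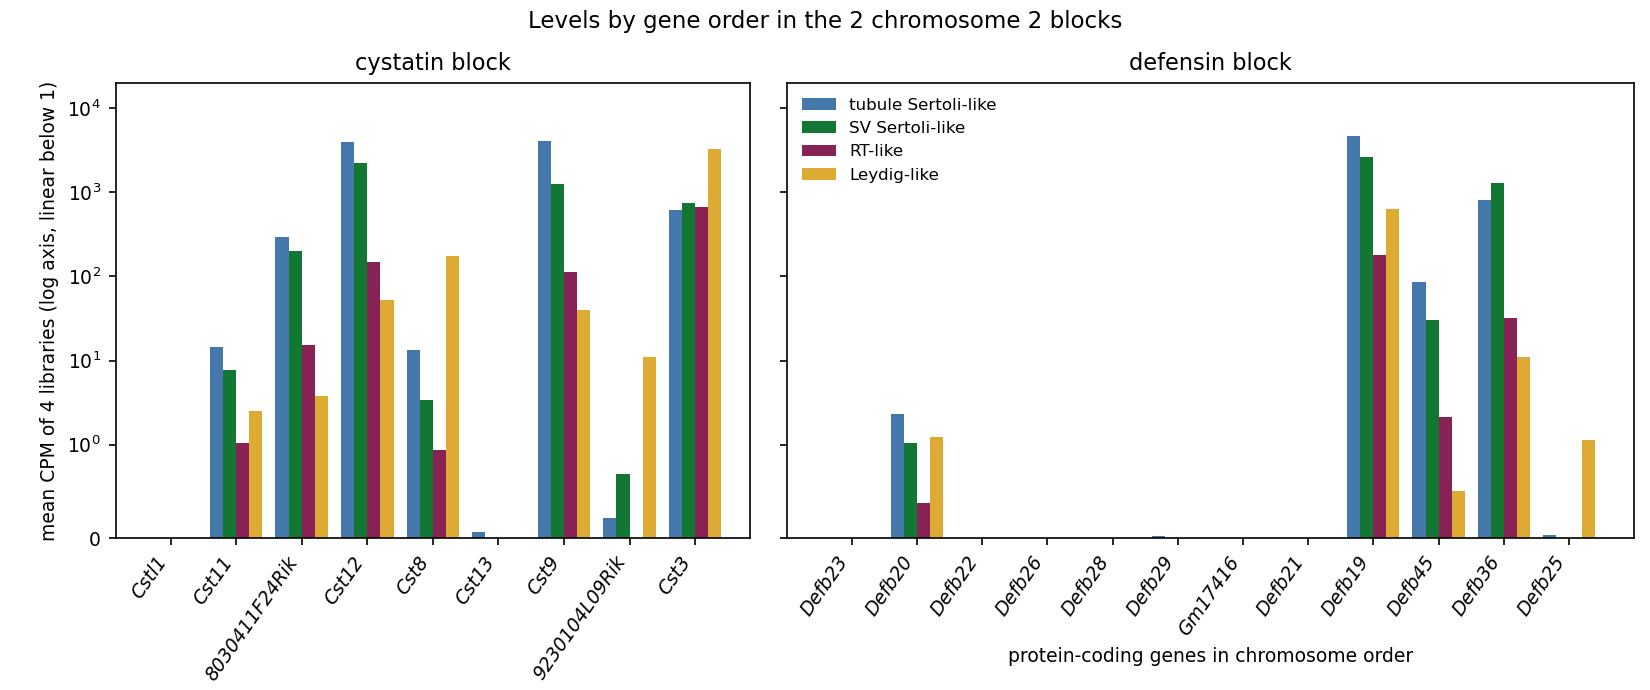
Mean level of 4 libraries in CPM (log axis, linear below 1) of the protein-coding genes of the cystatin and defensin blocks, in chromosome order, in tubule Sertoli-like, SV Sertoli-like, RT-like and Leydig-like cells. *Cst8* and *Cst3* were the genes of the cystatin block with a higher bar in Leydig-like than in tubule Sertoli-like cells besides *9230104L09Rik*, at 0 to 24.2 CPM in Leydig-like cells.

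To ask how the SV differs from the tubule proper, SV Sertoli-like cells were compared with tubule Sertoli-like cells within each library (edgeR quasi-likelihood test, library as a block, Benjamini-Hochberg adjustment over all genes tested). Of the 7 genes, 6 passed the filter on low counts and all 6 passed the threshold of 0.05, against a background of 30.8% of all 10442 genes tested. *Defb19*, *Cst12*, *Cst9* and *Cst8* were lower in the SV and *Defb36* and *Cst3* were higher, where 15.3% of all genes were lower and 15.5% higher. The SV class was named from 10 markers, most of them picked by the study on these libraries, and none of them is a defensin or cystatin. Together they stood at 757 to 1091 CPM in SV and 67.6 to 86.2 CPM in tubule Sertoli-like cells. They are not particular to the SV, with 495 to 633 CPM in RT-like, 783 to 858 CPM in interstitial-like and 1010 to 1428 CPM in endothelial-like cells. Among the 10 markers, *Cyp26a1* was at 12.1 to 26.4 CPM in tubule and 2.08 to 32.9 CPM in SV Sertoli-like cells. It was also among the leading genes of a tubule subcluster of 1184 cells.

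*Cst9* fell most among the abundant genes. Its SV level was 1039.8 and 972 CPM in the controls and 1483 and 1476 CPM in the *Sox17*-cKO libraries, that is 25.01% to 33.4% of the tubule level in the same library. No SV value reached the lowest tubule value. The log2 fold change was -1.71 ± 0.071 (SE) with an adjusted p of 5.46e-20.

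*Defb19* and *Cst12* kept more of their tubule level. *Defb19* showed 3151, 1804, 3596 and 1973 CPM in the SV class of control 1, control 2, *Sox17*-cKO 1 and *Sox17*-cKO 2, or 53.9% to 60.4% of the tubule level of the same library. The lowest tubule value was below the highest SV value, but within each library the SV was lower. Its log2 fold change was -0.85 ± 0.061 (adjusted p = 1.60e-13). *Cst12* showed 2215, 2462, 2502 and 1786 CPM, or 52.0% to 61.5% of the tubule level, with a log2 fold change of -0.83 ± 0.063 (adjusted p = 5.77e-13), and its SV and tubule values did not overlap.

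*Defb36* went the other way. Its SV levels were 1473, 1198, 1538 and 949 CPM, 144% to 169% of the tubule level in the same library, and it was higher in each library, while the lowest SV value (949 CPM) was just under the highest tubule value (951 CPM). The log2 fold change was 0.65 ± 0.067 (adjusted p = 8.62e-10). Over the settings, that of *Defb36* ran from 0.39 to 0.82 and that of *Cst9* from -1.96 to -1.32. It ran from -0.97 to -0.69 for *Defb19* and from -0.93 to -0.68 for *Cst12*. *Cst3* was at 731, 845, 831 and 607 CPM, 111% to 134% of the tubule level, a log2 fold change of 0.27 ± 0.073 (adjusted p = 0.0044). The *Cst3* call was lost without the filter on low counts (adjusted p = 0.12), with cells of under 10% mitochondrial UMIs (adjusted p = 0.11) and without control 2 (adjusted p = 0.071).

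For *Cst8* the SV class is thin. It had 7 UMIs there, 3 in control 2 and 4 in *Sox17*-cKO 2, against 411 UMIs in the tubule class, and 0 in the other 2 libraries, where 3 UMIs would be 6.25 and 8.29 CPM. The fitted log2 fold change was -1.90 ± 0.50 (adjusted p = 0.0033). *Defb25* had no UMI in SV Sertoli-like cells, and 3 UMIs would be 4.12 to 8.29 CPM.

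Markers of other cell types were measured in the same sums. The 6 RT markers together stood at 90.9 to 155 CPM in SV Sertoli-like and 17.1 to 32.9 CPM in tubule Sertoli-like cells. *Krt7* was at 0 in both. The same 6 markers stood at 605 to 1003 CPM in RT-like and 189 to 274 CPM in germ-like cells. *Epcam* alone was 57.8 to 133 CPM of the SV sum, while *Pax8* and *Cdh1* were each at 0 to 2.76 CPM there. The 9 germ cell markers stood at 573 to 1014 CPM in SV and 720 to 1076 CPM in tubule Sertoli-like cells. Of these sums *Uchl1* alone was 333 to 623 CPM and 320 to 618 CPM. The 8 interstitial markers stood at 142 to 700.2 CPM and 83.95 to 316 CPM, and the 5 Leydig markers at 0 to 9.61 CPM and 1.33 to 11.3 CPM. Their part in the differences was not tested. Within tubule Sertoli-like cells, 518 cells formed a subcluster led by germ cell genes such as *Tex101* and *Sycp3*. Without this subcluster 6 of the genes passed the threshold, where 2220 to 3434 of all genes passed over the settings that kept every library.

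The mean *Defb36* level of the SV lay within the range of the means of the tubule subclusters, although in control 2 the SV (1198 CPM) was above each of them. In the 1232 tubule cells of the subcluster led by *Uchl1*, which is also in the germ cell list, and *Sncb* it was 2042, 1144, 1541 and 1134 CPM, a mean of 1465 ± 429 CPM (SD, n = 4), against 1289 ± 271 CPM in the SV. In the 1356 cells of the subcluster led by *Arhgap31* and *Dnm3* it was 534 ± 112 CPM. *Cst12* ranged only from 2988 to 4117 CPM between the means of the 5 tubule subclusters, and *Cst9* from 3335 to 4838 CPM, so that the SV mean was below each of them for both genes. The clusters were formed from other genes of these cells, and the levels are descriptions.

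Other members of the families were tested in the same comparison. Of the 51 rows of these patterns that are not among the 7 genes, 5 passed the filter, with *Cstb* and *Defb42* higher and *Defb45* lower in the SV (15.5% of all genes were higher and 15.3% lower). *Defb42* was at 2.73 to 5.69 CPM in tubule and 2.76 to 20.6 CPM in SV Sertoli-like cells (log2 fold change 1.71 ± 0.38, adjusted p = 5.37e-04). These 2 ranges overlapped, and the SV values rest on few counts, since 3 UMIs would be 4.12 to 8.29 CPM there. *Cstb*, which encodes the intracellular cystatin B, rose from 139 ± 8.7 to 385 ± 45.8 CPM (SD, n = 4; log2 fold change 1.47 ± 0.093, adjusted p = 4.71e-15). *Defb45* fell from 84.9 to 30.0 CPM (log2 fold change -1.56 ± 0.18, adjusted p = 8.92e-09). Over the settings its log2 fold change ran from -1.81 to -0.81. *8030411F24Rik*, a cystatin-block gene without a family name, showed a log2 fold change of -0.62 ± 0.11 (adjusted p = 2.58e-05), which was lost at a clustering resolution of 0.8 (-0.14, adjusted p = 0.52) and when the families were allowed to shape the clusters (-0.25, adjusted p = 0.14).

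Among the proteases that many cystatins bind, 7 of 11 cathepsin and legumain genes were tested. Of these, 4 were higher in the SV (*Ctsh*, *Ctsf*, *Ctsz* and *Ctsb*) and 1 was lower (*Ctsl*). Over all genes, 15.5% were higher and 15.3% lower. *Ctsl*, the most abundant, went from 3111 ± 518 to 2262 ± 339 CPM (log2 fold change -0.46 ± 0.063, adjusted p = 3.56e-07). *Ctsh*, an aminopeptidase, was at 3.88 to 10.6 CPM in the tubule class and at 150 to 194 CPM in the SV class, without overlap (log2 fold change 4.46 ± 0.19, adjusted p = 7.04e-20). *Lgmn* (legumain) showed 257 and 298 CPM (log2 fold change 0.21 ± 0.088, adjusted p = 0.070), and it passed the threshold under some other settings, with a log2 fold change of up to 0.61 in cells of under 10% mitochondrial UMIs (adjusted p = 2.40e-04).

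**Figure D3:**
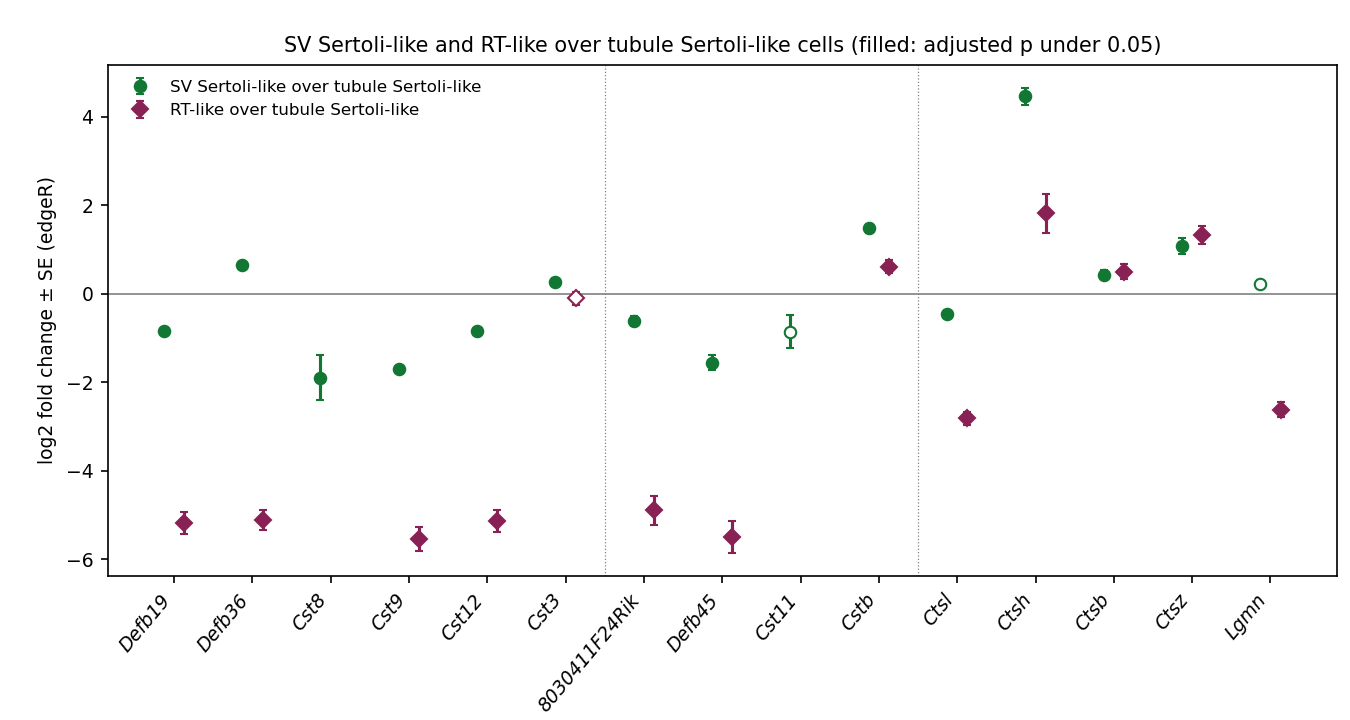
Log2 fold change ± SE (edgeR) of SV Sertoli-like and of RT-like over tubule Sertoli-like cells for 6 of the 7 genes, 4 neighbours or relatives and 5 protease genes, separated by dotted lines. Filled symbols passed the threshold, and genes with a single UMI in RT-like cells have no symbol there; *Defb36* was above 0 in the SV and at -5.10 in RT-like cells, and *Ctsh* was above 0 in both.

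From the SV to the RT the Sertoli-high genes dropped to a small remainder. RT-like cells are the epithelium into which the valve opens, and they were compared with tubule Sertoli-like cells in the same way. Of the 7 genes 6 were tested and 5 were lower in RT-like cells, against a background of 54% of all genes called and 28.7% lower. No gene of the 7 was higher, where 25.3% of all genes were. *Cst3* alone did not pass.

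*Defb19* was at 321 and 84.8 CPM in the RT-like cells of the controls and at 265 and 52.6 CPM in those of the *Sox17*-cKO libraries. The log2 fold change over tubule Sertoli-like cells was -5.18 ± 0.26 (adjusted p = 2.72e-12). *Cst9* was at 166, 50.2, 157 and 78.2 CPM (log2 fold change -5.54 ± 0.27, adjusted p = 1.74e-12). *Cst12* was at 242, 83.1, 186 and 79.7 CPM (log2 fold change -5.13 ± 0.24, adjusted p = 1.22e-12). In all 3 genes the replicate 1 libraries were the higher ones. *Defb36* was at 45.4, 20.8, 49.6 and 12.03 CPM (log2 fold change -5.10 ± 0.23, adjusted p = 4.57e-13). Over the settings the log2 fold change ran from -5.73 to -4.85 for *Defb19* and from -6.24 to -5.19 for *Cst9*. It ran from -5.55 to -4.83 for *Cst12* and from -5.85 to -4.82 for *Defb36*. *Cst8* had 1 UMI, in control 1 (3.78 CPM, with a 95% Poisson interval of 0.096 to 21.1 CPM), and passed the threshold (adjusted p = 5.13e-05), although a fold cannot be read from that count.

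*Cst3* continued at the Sertoli level. It stood at 620.3 and 623 CPM in the RT-like cells of the controls and at 861 and 603 CPM in those of the *Sox17*-cKO libraries, 94.1% to 133% of the tubule level. The log2 fold change was -0.11 ± 0.14 (adjusted p = 0.54) over tubule and -0.15 ± 0.15 (adjusted p = 0.43) over SV Sertoli-like cells. Against the SV, 5 of the 7 genes could be tested and *Cst12*, *Cst9*, *Defb19* and *Defb36* were lower, by -4.07 ± 0.23, -3.60 ± 0.23, -4.11 ± 0.24 and -5.51 ± 0.22 on the log2 scale (background 44.3% called, 21.1% lower and 23.2% higher).

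Of the 7 protease genes tested, 3 were higher and 4 lower in RT-like than in tubule Sertoli-like cells (25.3% and 28.7% of all genes). *Ctsl* went down to 517 CPM in RT-like cells (log2 fold change over tubule -2.82 ± 0.15, adjusted p = 8.79e-12) and *Lgmn* to 50.5 CPM (-2.62 ± 0.17, adjusted p = 1.73e-10). *Ctsf*, which was higher in the SV, was lower in RT-like cells than in the tubule class (-1.89 ± 0.21, adjusted p = 3.03e-07), and *Ctso* was lower too (-0.62 ± 0.21, adjusted p = 0.017). *Ctsz*, *Ctsb* and *Ctsh* were higher than in the tubule class. The *Ctsb* and *Ctso* calls were lost with DESeq2 (adjusted p = 0.05045 and 0.076) and without control 2 (0.088 and 0.17), that of *Ctsb* also without control 1 (0.067), and that of *Ctso* also in cells of under 10% mitochondrial UMIs (0.23). *Ctsh* was lower than in the SV (35.7 against 173 CPM; log2 fold change -2.49 ± 0.27, adjusted p = 1.30e-07). *Cstb* was at 253 CPM, above the tubule (log2 fold change 0.61 ± 0.14, adjusted p = 0.0015) and below the SV (-0.62 ± 0.16, adjusted p = 0.0029). The difference from the SV was lost at a clustering resolution of 0.8 (-0.25, adjusted p = 0.17), when the families were allowed to shape the clusters (-0.36, adjusted p = 0.056) and without *Sox17*-cKO 2 (-0.47, adjusted p = 0.072).

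The remainder in RT-like cells was compared with that in classes in which these genes are not known to be made. In RT-like cells *Defb19* reached 1.45% to 5.55% of the tubule level of the same library, and in germ-like cells 1.34% to 7.44%. For *Cst12* the ranges were 2.03% to 5.68% and 1.24% to 6.37%, for *Cst9* 1.29% to 4.96% and 1.19% to 5.77%, and for *Defb36* 1.83% to 5.45% and 1.58% to 7.18%. Macrophage-like cells gave 0.957% to 5.73% for *Defb19*, 1.13% to 4.04% for *Cst12*, 1.01% to 3.73% for *Cst9* and 1.14% to 5.2% for *Defb36*. Interstitial-like cells gave 1.83% to 5.81% for *Defb19* and 1.24% to 5.18% for *Cst12*. Endothelial-like cells, a class of 72 cells, gave 0.462% to 2.16% for *Defb19* and 0.762% to 1.84% for *Cst9*. For *Cst12* they gave 0.821% to 5.27%, and for *Defb36* 0% to 5.6%. Leydig-like cells gave 0.338% to 1.68% for *Cst9* and 0.847% to 1.99% for *Defb36*. For *Cst12* they gave 0.413% to 2.58%, and for *Defb19* 8.48% to 17.3%. Each of these ranges, taken over the libraries, overlapped that of the same gene in RT-like cells, except *Defb19* in Leydig-like cells, which was higher. Within each library, Leydig-like cells were nevertheless below RT-like cells for *Cst12*, *Cst9* and *Defb36*. Endothelial-like cells were below RT-like cells in each library for *Defb19* and *Cst9*, and macrophage-like cells for *Cst12*. The other ranges given here had no single order within libraries. Some of these values rest on few counts, such as 4 to 7 UMIs of *Cst9* in endothelial-like cells. The order of RT-like and germ-like cells went with the replicate number for each of the 4 genes. In control 1 and *Sox17*-cKO 1 the percentage was lower in RT-like than in germ-like cells (*Defb19* 5.55% against 7.44% and 4.45% against 7.27%), and in control 2 and *Sox17*-cKO 2 it was higher (2.54% against 1.502% and 1.45% against 1.34%). This order holds for the pooled germ-like class, which was itself uneven. Between germ-like clusters *Defb19* ran from 148 to 1559 CPM in control 1 and from 18.4 to 114 CPM in control 2. RT-like cells lay between these values, at 321 and 84.8 CPM.

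A direct test of RT-like over germ-like cells, added after these values were seen, called 1 of 5 genes tested, against 65.4% of all genes (29.3% higher and 36.1% lower). That gene was *Cst3*, which was higher in RT-like cells (log2 fold change 0.78 ± 0.15, adjusted p = 2.30e-04). *Defb19* differed by -0.12 ± 0.20, *Cst12* by 0.19 ± 0.20, *Cst9* by -0.04 ± 0.19 and *Defb36* by -0.01 ± 0.28 on the log2 scale, with adjusted p from 0.40 to 0.99. These values average the opposite orders of the replicate 1 and replicate 2 libraries and do not show that the classes are alike. When the cells with the top 10% of doublet scores were removed, *Defb19* (-0.58, adjusted p = 0.011) and *Cst9* (-0.57, adjusted p = 0.019) were lower in RT-like than in germ-like cells.

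Other Sertoli genes were spread over a wide range in the RT. *Sox9* was at 73.1% to 130% of the tubule level in RT-like cells, *Amhr2* at 27.2% to 70.3%, *Clu* at 30.0% to 49.0% and *Aard* at 7.92% to 16.6%. *Inha* (2.10% to 5.79%), *Rhox5* (0.577% to 6.30%) and *Tsx* (2.55% to 9.26%) were at low percentages like the 4 genes, and *Amh* had no UMI. In germ-like cells these 8 genes lay between 1.12% and 9.07%. The 5 endothelial markers summed to 280 to 503 CPM in RT-like cells, of which *Kdr* alone was 278 to 492 CPM.

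**Figure D4:**
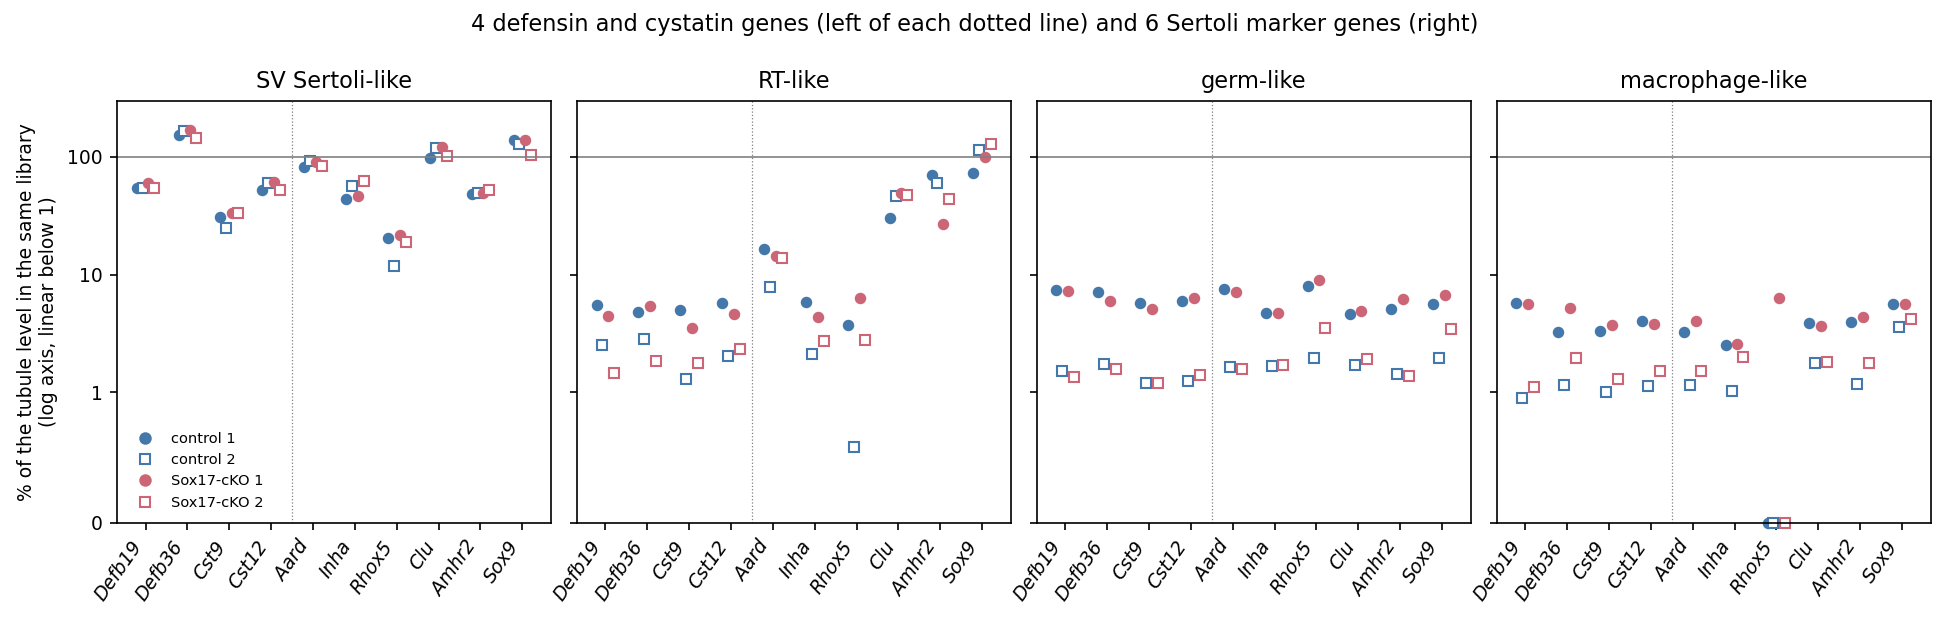
Level as a percentage of the tubule Sertoli-like level of the same library (log axis, linear below 1) in 4 classes, for 4 defensin and cystatin genes and 6 Sertoli markers, with 1 point per library. In RT-like cells the 4 genes were at 1.29% to 5.68%, *Inha* and *Rhox5* at 0.577% to 6.30%, *Aard* at 7.92% to 16.6%, and *Sox9*, *Amhr2* and *Clu* at 27.2% to 130%.

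The remainder was uneven between RT-like cells. In control 2 and *Sox17*-cKO 2 the median RT-like cell had no UMI of *Defb19*, and the top 10% of cells (8 and 9 cells) held 83.7% and 88.6% of its UMIs. In control 1 and *Sox17*-cKO 1 the median was 164 and 266 CPM, and the top 4 cells held 58.8% and 28.1%. *Defb19* was seen in 7.14% to 46.7% of RT-like cells thinned to 2000 UMIs and in 7.67% to 49.2% of germ-like cells. Thinned to 1000 UMIs, the shares were 5.48% to 36.4% and 4.02% to 31.7%, and for *Cst9* at 2000 UMIs they were 7.04% to 40% and 6.23% to 31.8%, so that the ranges of both classes overlapped with no fixed order.

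The make-up of the counts was compared between classes, since free RNA from broken cells can enter every droplet. Of the summed UMIs of *Defb19*, *Cst12*, *Cst9* and *Defb36*, *Defb36* made up 5.43% to 6.63% in tubule Sertoli-like cells, 5.41% to 8.70% in RT-like cells, 5.56% to 7.87% in germ-like cells and 5.59% to 7.57% in barcodes with under 1000 genes. In SV Sertoli-like cells it made up 15.3% to 18.7%. The *Defb36* share in RT-like cells was below that of SV Sertoli-like cells in every library. In RT-like cells it rests on few counts of *Defb36*, 12 and 12 UMIs in the controls and 12 and 8 UMIs in the *Sox17*-cKO libraries. The barcodes with under 1000 genes held *Defb19* at 37.1% to 41.4% of the tubule level, far above germ-like cells. Whether the counts in RT-like and germ-like cells come from free RNA was not tested.

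The level in germ-like cells moved with the replicate number. There, *Defb19* was 8.57 times as high in control 1 as in control 2 and 8.87 times as high in *Sox17*-cKO 1 as in *Sox17*-cKO 2. The same ratios were 5.01 and 5.39 for *Cst12*, 4.14 and 4.29 for *Cst9* and 5.41 and 5.20 for *Defb36*. In tubule Sertoli-like cells they were 1.73 and 1.64 for *Defb19*, 1.04 and 1.19 for *Cst12* and 0.863 and 1.01 for *Cst9*. Other classes varied, with *Defb19* at ratios of 10.4 and 8.28 in macrophage-like, 3.79 and 5.03 in RT-like, 1.27 and 1.64 in Leydig-like and 1.28 and 6.06 in endothelial-like cells.

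**Figure D5:**
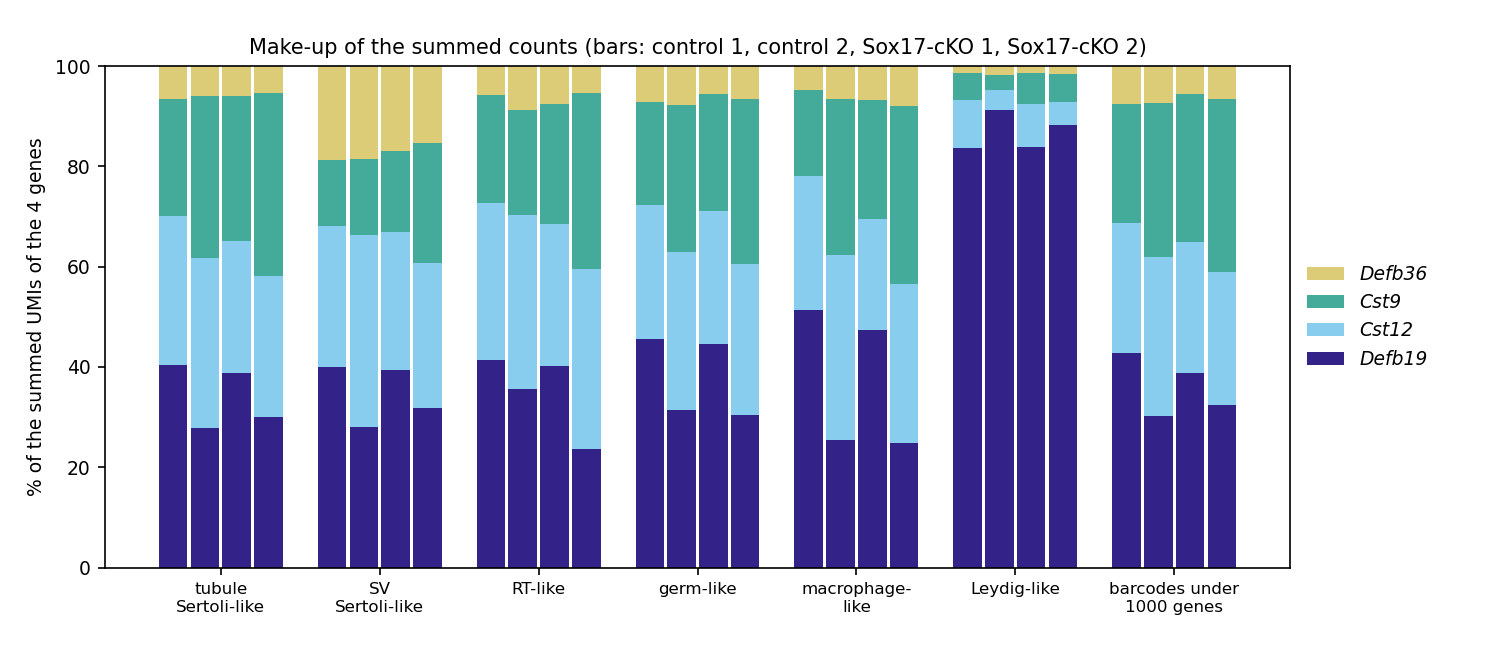
Share of each of 4 genes in their summed UMIs (%), in 6 classes and in the barcodes with under 1000 genes, with a bar for each library in the order control 1, control 2, *Sox17*-cKO 1, *Sox17*-cKO 2. *Defb36* took 15.3% to 18.7% in SV Sertoli-like cells and 5.41% to 8.70% in RT-like cells, and *Defb19* took 83.6% to 91.1% in Leydig-like cells.

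*Cst8* was highest in Leydig-like cells. Leydig cells are the androgen-producing cells between the tubules, and the Leydig-like class was led by *Cyp17a1*, *Cyp11a1*, *Hsd3b1* and *Insl3*. *Cst8* stood at 177, 158, 172 and 199 CPM there (22, 168, 85 and 218 UMIs), a mean of 176 ± 16.9 CPM (SD, n = 4) and 1149% to 1423% of the tubule level of the same library. It was counted in 49.1% to 61.5% of Leydig-like cells, and in 13.3% to 30.8% after thinning to 2000 UMIs, against 2.42% to 3.54% of tubule Sertoli-like and 0% to 0.286% of germ-like cells after thinning. The median depth was 8210 to 12808 UMIs in Leydig-like cells. A library held 13 to 108 cells of this class, so that some shares rest on few cells.

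*Defb19* in Leydig-like cells stood apart from *Cst12* and *Cst9*. It was at 491 and 386 CPM in the controls and at 1031 and 629 CPM in the *Sox17*-cKO libraries, 8.48% to 17.3% of the tubule level, whereas *Cst12* was at 0.413% to 2.58% and *Cst9* at 0.338% to 1.68%. *Defb19* made up 83.6% to 91.1% of the summed UMIs of the 4 genes in this class and 27.8% to 40.3% in tubule Sertoli-like cells. Over germ-like cells, in a comparison added after the levels were seen and with a background of 69.2% (30.6% higher and 38.6% lower), 3 of 6 genes tested were higher and 2 lower. *Cst8* was higher by 8.34 ± 0.27 on the log2 scale (adjusted p = 7.34e-24), *Cst3* by 3.33 ± 0.17 (adjusted p = 1.67e-18) and *Defb19* by 2.39 ± 0.32 (adjusted p = 7.36e-08). *Cst12* (-0.95 ± 0.21, adjusted p = 1.79e-04) and *Cst9* (-1.03 ± 0.23, adjusted p = 2.02e-04) were lower than in germ-like cells. The comparison was chosen for these levels, and its p-values describe the pattern rather than test it. *Defb36* differed by -0.67 ± 0.33 (adjusted p = 0.070). Sertoli markers were unequal in Leydig-like cells too, with *Sox9* at 0.938% to 4.63%, *Aard* at 3.78% to 6.09%, *Tsx* and *Rhox5* at 0% to 4.30%, *Amhr2* at 8.92% to 25.8%, *Clu* at 18.1% to 24.3% and *Inha* at 25.7% to 76.8% of the tubule level.

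*Cst3* was present in every class and highest outside the tubule. Macrophage-like cells had 2815, 3507, 3321 and 3178 CPM, and Leydig-like cells 2625, 4169.6, 3648 and 2464 CPM. The ranges of these 2 classes overlapped. Interstitial-like cells followed with 945 to 1388 CPM, above every value of the remaining classes. Tubule Sertoli-like (542 to 659 CPM), SV Sertoli-like (607 to 845 CPM), RT-like (603 to 861 CPM) and endothelial-like cells (466 to 898 CPM) overlapped. Germ-like cells had the lowest mean and 316 to 473 CPM, below all tubule, SV and RT values and overlapping with endothelial-like cells.

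*Defb25* was a rare RNA of interstitial-like cells. Of 271 UMIs over all barcodes, 198 were in interstitial-like cells (19, 81, 10 and 88 UMIs, or 2.85, 3.92, 1.69 and 5.25 CPM), 8 in germ-like, 5 in Leydig-like and 1 in tubule Sertoli-like cells. Most of them were in 3 clusters, with 87 UMIs in that led by *Tnnt2*, *Myh11* and *Acta2* (2.21 to 7.65 CPM), 66 in that led by *Col1a1* and *Lum* (1.86 to 3.96 CPM) and 40 in that led by *Plac8* and *Dlk1* (0 to 6.64 CPM). In RT-like cells the count was 0, which allows up to 4.51 to 12.4 CPM at 3 UMIs per library. Intervals and limits of this kind cover counting error only.

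Genes with the most similar pattern were listed over the 32 sums of 8 classes and 4 libraries, by Pearson's r of log2(CPM + 1) among 7039 genes of at least 50 CPM in a class. *Cst9* was nearest to *Rhox8* (r = 0.975) and *Cst12* (r = 0.972), *Cst12* to *Cst9* and *Defb36* (r = 0.959), and *Defb36* to *Cst12*, *Cst9* (r = 0.934) and *Aard* (r = 0.934). *Wfdc10* and *Wfdc9*, of another family of small secreted proteins, had rank 3 for *Cst9* and *Cst12* (r = 0.951 and 0.958). *Defb19* was nearest to *Suclg1* (r = 0.933), *Smpx* and *Gsta4*, *Cst8* to *Serpina3a* (r = 0.933), *Fdxr* and *Serpina5*, *Cst3* to *Hpgd* (r = 0.886), *Cd36* and *Serinc3*, and *Defb25*, which is below 50 CPM, to *Cpz* (r = 0.914). The sums share libraries and free RNA, and these values are descriptions.

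Loss of *Sox17* was examined in each class, 2 libraries against 2. In tubule Sertoli-like cells none of the 6 genes tested was called, and neither was any of all 11964 genes (edgeR, 0% called; the unadjusted p was under 0.05 for 101 genes, and 0 were called by DESeq2). The log2 fold changes of *Sox17*-cKO over control were -0.04 ± 0.38 for *Defb19*, -0.22 ± 0.32 for *Defb36*, 0.16 ± 0.32 for *Cst9*, -0.29 ± 0.31 for *Cst12*, -0.25 ± 0.30 for *Cst3* and -0.14 ± 0.31 for *Cst8* (adjusted p = 0.9999 for each). An exact permutation test of 2 against 2 cannot go below a two-sided p of 0.333.

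Genotypes were also compared within each Cell Ranger version. The log2 ratio of the *Defb19* levels, *Sox17*-cKO over control, was 0.04 for replicate 1 and 0.12 for replicate 2, and that of *Cst9* was 0.41 and 0.19. In the SV Sertoli-like cells *Cst9* had the largest fitted difference of the genes tested, 0.49 ± 0.29 (adjusted p = 0.9998), with log2 ratios of 0.51 and 0.60 within versions. No gene was called in the SV (edgeR, 0% of 6053 genes; the unadjusted p was under 0.05 for 99, and 0 were called by DESeq2). A direct test of whether the difference between SV and tubule depended on genotype called none of the 6 genes (edgeR, background 0.00885%; the unadjusted p was under 0.05 for 403 genes, and 0 were called by DESeq2), and *Cst9* had an interaction of 0.31 ± 0.14 (unadjusted p = 0.040, adjusted p = 1).

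In RT-like cells, the class in which *Sox17* is lost, 6 of 6799 genes were called (0.0882%) and none of the 5 genes tested was among them (edgeR; the unadjusted p was under 0.05 for 391 genes, and 21 were called by DESeq2). *Defb19* differed by -0.47 ± 0.79 and *Cst3* by 0.19 ± 0.31 on the log2 scale (adjusted p = 0.9972 for both). Without *Sox17*-cKO 1, *Defb19* differed by -1.91. This left a lone *Sox17*-cKO library that is assumed to vary like the others and whose replicate number goes with the low level. In Leydig-like cells the unadjusted p was 0.008 for *Cst9* (log2 fold change 1.71 ± 0.56) and 0.035 for *Defb19* (0.91 ± 0.39), with adjusted p of 0.9996 for both, and *Cst8* differed by 0.13 ± 0.36. The *Cst9* value rests on 4 and 14 UMIs in the controls and 37 and 44 UMIs in the *Sox17*-cKO libraries. *Defb25* differed by 0.02 ± 0.58 in interstitial-like cells (adjusted p = 1). None of the 6, 6, 5, 5 and 3 genes tested in germ-like, interstitial-like, Leydig-like, macrophage-like and endothelial-like cells was called, and in these classes 0% of all genes passed (edgeR; the unadjusted p was under 0.05 for 21 to 92 genes a class, and 0 to 2 were called by DESeq2).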

How the data were processed

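The authors aligned reads to mm10 (GRCm38) with Cell Ranger and deposited whole UMI counts per gene and barcode, not normalized; aggregated tables were not used here. Cells with 1000 to 4500 detected genes were kept. The 1% mitochondrial limit of the study's methods was not applied, since 212 cells would remain. The libraries were integrated, and cells clustered, by Seurat (5.3.0, under R 4.3.3; 2000 variable features, 20 principal components, resolution 0.4). The SV class came from a second clustering of Sertoli-like cells, chosen after the first did not separate it. Scrublet marked 0 barcodes as doublets in 2 libraries, so its calls were not used and no doublet was removed. Mitochondria-rich clusters (830 cells with Sertoli and 1412 with germ cell markers) and 71 unnamed cells were left out.

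The UMI sums of each class in each library were tested with edgeR 4.0.16 (TMM, filterByExpr, quasi-likelihood F test, Benjamini-Hochberg, two-sided, threshold 0.05), with DESeq2 1.42.0 as an alternative; the steps were tested on simulated data with 200 changed genes. Retained UMIs per library were 33649565 to 42011650, and 241710 in the smallest RT-like sum. Intervals are at 95%, and cover counting error only. The 7 genes, the family list (symbol patterns for beta-defensins, cystatins and stefins, which also took *Cstad*), 11 protease genes, and the 3 most similar genes of each member were named by rule. The members and lists were chosen with earlier results of these data known. Descriptive values came from Python 3.11.15. Coordinates are from GENCODE vM21.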

Additional observations from a re-analysis of the deposited data

Results flagged for a closer look

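Much of the RNA of the 7 genes, as of all genes, was counted in barcodes and cells that the main comparisons left out. The 15606 barcodes with under 1000 detected genes held 93897 UMIs of the 7 genes, at 37.1% to 41.4% of the tubule level for *Defb19*. The 7828 barcodes with over 4500 detected genes held 836036 UMIs, at 18.6% to 29.4% of the tubule level for *Defb19* and at 37.2% to 51.3% for *Cst8*. No class was assigned to these barcodes. For all genes, those with over 4500 detected genes held 49387483 to 63156394 UMIs of the 89969877 to 107203219 UMIs of a library. Being left out was thus not particular to the 7 genes. Over all barcodes *Defb19* had 483361, *Cst12* 421126, *Cst9* 359691, *Cst3* 225352 and *Defb36* 79539 UMIs. The mitochondria-rich cells with Sertoli markers held 14385 UMIs and those with germ cell markers 10587 UMIs, at 26.9% to 45.1% and 3.35% to 22.4% of the tubule level for *Defb19*. These groups were listed because they lay outside the main comparisons, whatever their count. The 71 unnamed cells were left out too and are not listed.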

How the results depend on the processing

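Under the other settings 5 to 6 members were called for SV over tubule, 5 for RT over tubule and 4 for RT over SV; counts near the number tested, or of 0 with 2 libraries a group, say little about stability. None of 285 called fold changes of members changed sign, against 107 of 723 that had not passed the threshold. With the cells of the top doublet scores removed, 3 members in place of 1 differed between RT-like and germ-like cells. All-gene calls for this comparison ranged from 7567 to 9168 over the settings that kept every library. When each library was left out in turn, *Defb19* moved most between genotypes in RT-like and germ-like cells. In RT-like cells its log2 fold change was -1.91 without *Sox17*-cKO 1. In germ-like cells *Defb19* turned from -0.06 to 2.17 on the log2 scale without control 1, over leave-one-out values of -2.28 to 2.17. The lone library left in a group is assumed to vary like the others, and the cause was not tested. All-gene calls ranged from 2220 to 3434 for SV over tubule, 4507 to 6938 for RT over tubule and 1904 to 4235 for RT over SV. With mitochondrial genes taken out of the total, tubule CPM means of 4 members moved by more than 1 SD, *Cst9* to 4545 CPM and *Cst12* to 4489 CPM, and at 1000 UMIs per cell 12 of 18 mean shares moved by more. DESeq2 called 2347 genes for SV over tubule.

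Same-numbered libraries share a replicate number and a Cell Ranger version, and the labels do not say that the number marks a shared litter or day. Deviations of same-numbered libraries correlated at 0.31 to 0.61 over 8 classes, with 2 pairs. With the number as a replicate block, 0 members were called in any class, and all-gene calls rose from 0 to 27 in tubule Sertoli-like and from 6 to 275 in RT-like cells. No member call changed with it. Depth limits *Cst8* and *Defb25* in the SV and RT classes.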
